A study of Homo sapiens with 2 samples.

Results

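Receptor tyrosine kinases are single-pass membrane proteins whose extracellular part binds a ligand and whose intracellular kinase domain then phosphorylates tyrosines. Adaptors that dock on those tyrosines pass the signal to RAS and the mitogen-activated kinases, to phosphoinositide 3-kinase and AKT, and to phospholipase C gamma. Breast cancers of basal and mesenchymal type are known for EGFR, MET and AXL, and breast cancers with amplified ERBB2 form a class of their own. The 47 receptor genes described here were chosen by name and grouped into families, most of which share an extracellular architecture. LMTK2, a membrane kinase, was counted with them by name and need not fit this outline of a receptor. Each gene matched 1 of the 60880 rows of the deposited table through its Ensembl identifier.

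RNA was sequenced from SUM-159, an established line of human breast cancer cells that lack the oestrogen and progesterone receptors and amplified HER2. The SgPD-L1L2-SE library is labelled PD-L1L2-SE deficient, PD-L1L2-SE being a super-enhancer of the PD-L1 and PD-L2 genes, and the sgVector library is its control. The labels do not say whether the deficient cells are 1 clone or a pool. Each group is a single library, so every value compares these libraries without a replicate check, and no p-value was computed.

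Depth was similar, with 16381546 gene reads for deficient cells and 16206675 for sgVector cells. CD274, which encodes PD-L1, stood at 0.698 RPKM in deficient cells and 7.16 RPKM in sgVector cells, and PDCD1LG2, which encodes PD-L2, at 1.19 and 5.32 RPKM. RPKM divides reads by exon length in kilobases and by library size in units of 1000000. That length is 1 value per gene, so levels compare between genes only as far as it fits the transcripts present. The mesenchymal markers VIM, CD44 and ZEB1 summed to 465.8 RPKM in deficient cells and 836.2 RPKM in sgVector cells. VIM stood at 389.7 and 746.2 RPKM, CD44 at 68.8 and 82.8 RPKM and ZEB1 at 7.31 and 7.14 RPKM in deficient and sgVector cells, so VIM made up most of that difference. The luminal receptor genes ESR1 and PGR had 6 and 0 reads in deficient cells and 2 and 0 reads in sgVector cells. The 5 matched endothelial markers summed to 1.84 RPKM in deficient cells and 1.87 RPKM in sgVector cells, and only ERG among them averaged at least 1 RPKM. The 6 leukocyte markers summed to 15.5 and 11.2 RPKM in deficient and sgVector cells, nearly all of it CD14, with PTPRC at 0 and 4 reads and CD3E listed at 0 in both. The 7 luminal markers summed to 38.5 and 50.2 RPKM and the 4 Schwann cell and melanocyte markers to 1.70 and 1.88 RPKM in deficient and sgVector cells. Most of the luminal sum came from KRT8 at 15.5 and 18.5 RPKM and KRT18 at 21.1 and 28.9 RPKM, in the same order. The epithelial genes EPCAM and CDH1 had 1 and 0 reads in deficient cells and 0 and 1 in sgVector cells. The part of these marker differences in the receptor values was not tested.

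Of the 47 receptors, 20 had a mean of at least 1 RPKM over both libraries, the floor used for counts and medians. They came from 14 of 18 families. All 20 were above 1 RPKM in each library, the lowest being EPHA4 at 1.32 RPKM in deficient cells and 1.11 RPKM in sgVector cells, and the nearest under the floor was EPHA7 at 0.786 and 0.778 RPKM. These 20 carried 99.1% of the summed RPKM of all 47 receptors in each library. Another 18 receptors had reads but stayed under the floor, and 9 were listed at 0 in both libraries. The 9 were the endothelial receptor genes FLT1, FLT4 and TEK, the stem cell factor receptor gene KIT, the haematopoietic receptor gene FLT3, and FGFR2, RET, EPHA5 and EPHB3. A count of 0 allows up to 3 reads, which is 0.0146 to 0.0445 RPKM for these genes. In bulk RNA, fewer cells with a transcript and less transcript per cell cannot be told apart.

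**Figure D1:**
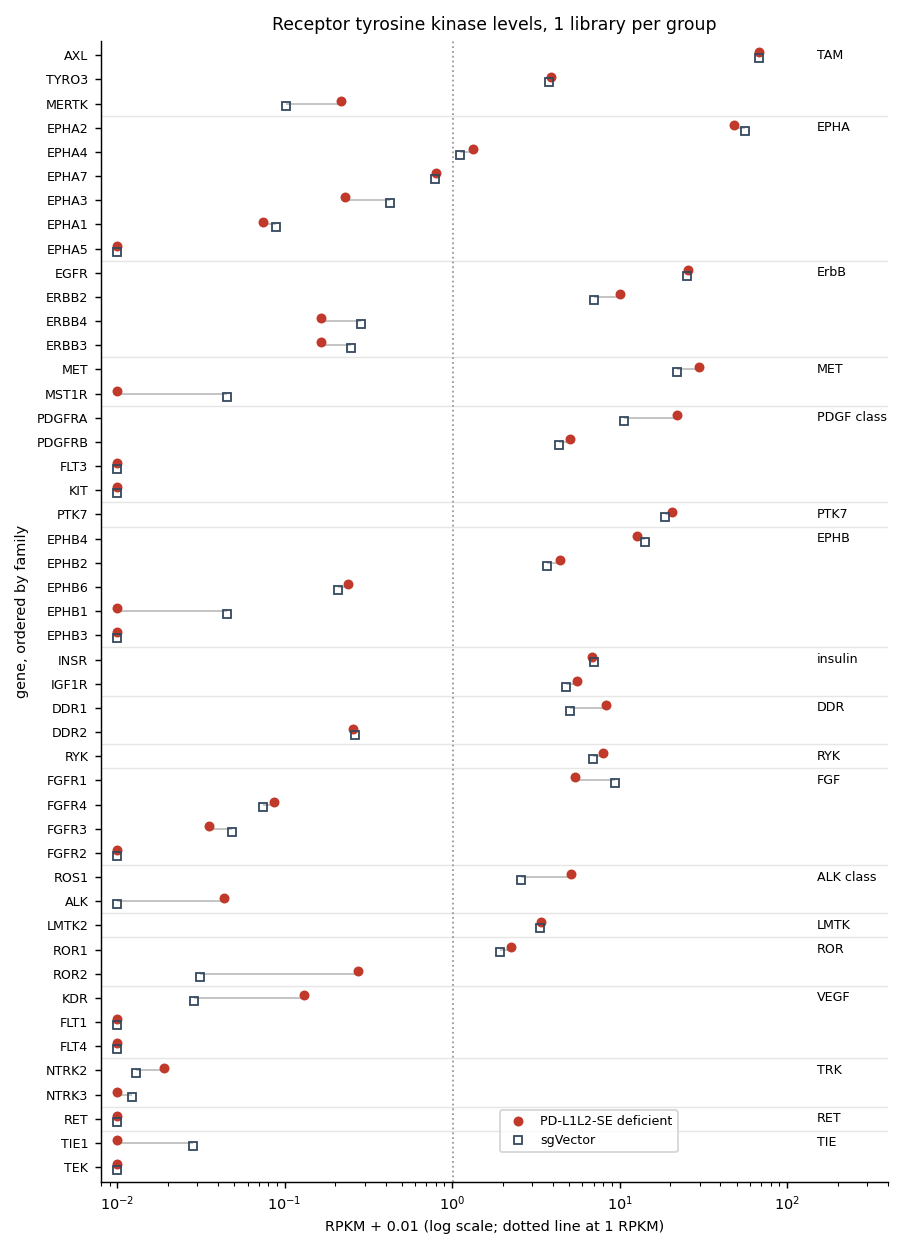
RPKM of each of the 47 receptors in the PD-L1L2-SE deficient library (filled circles) and the sgVector library (open squares), 1 library each, on a log axis after adding 0.01, ordered by family. AXL, EPHA2, MET and EGFR stand highest in both libraries, and the widest gaps among genes right of the 1 RPKM line belong to PDGFRA, ROS1, DDR1 and FGFR1.

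By RPKM the same receptors dominated both libraries. AXL, a receptor for the vitamin K-dependent ligands GAS6 and protein S, was the highest at 67.5 RPKM in deficient cells and 68.0 RPKM in sgVector cells. EPHA2, a receptor for ephrin-A ligands, followed at 48.4 and 56.1 RPKM in deficient and sgVector cells. MET, the hepatocyte growth factor receptor, ranked 3 in deficient cells at 29.7 RPKM and 4 in sgVector cells at 22.1 RPKM. EGFR, the receptor for EGF, TGFA and epiregulin, ranked 4 in deficient cells at 25.5 RPKM and 3 in sgVector cells at 25.3 RPKM. These 4 genes made up 57.3% of the summed receptor RPKM in deficient cells and 61.7% in sgVector cells. The order depends on gene length. By reads in deficient cells, EPHA2 had 3300, fewer than EGFR with 5235, MET with 3425 and PDGFRA with 3527. In sgVector cells EPHA2 had 3784 reads, fewer than EGFR with 5128 and more than MET with 2526 and PDGFRA with 1663.

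The sum over all 47 receptors was 298.6 RPKM in deficient cells and 278.2 RPKM in sgVector cells, a ratio of 1.07. The difference of 20.4 RPKM sums receptors that were higher and receptors that were lower. PDGFRA was 11.6 RPKM higher in deficient cells and MET 7.56 RPKM higher, while EPHA2 differed by -7.70 RPKM and FGFR1 by -3.89 RPKM. Without PDGFRA the log2 ratio of the sums was 0.047, against 0.10 with it. PDGFRA made up 7.41% of the receptor sum in deficient cells and 3.79% in sgVector cells, and ranked 5 and 7.

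**Figure D2:**
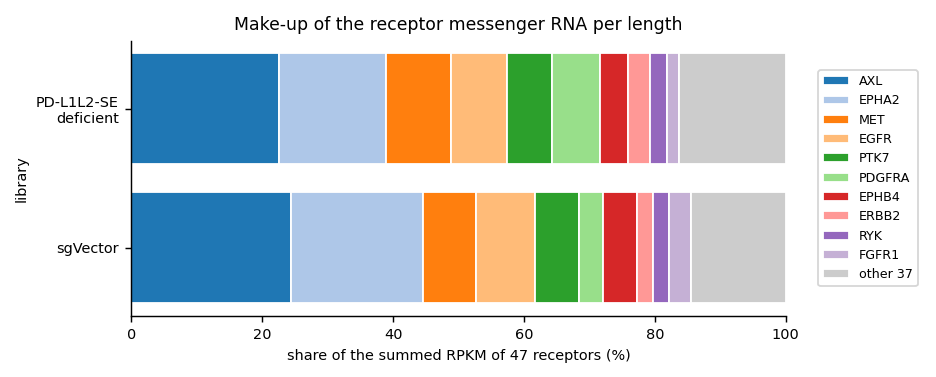
Share in percent of the summed RPKM of the 47 receptors taken by the 10 receptors with the highest mean, with the remaining 37 pooled, in the deficient library (top bar) and the sgVector library (bottom bar). AXL takes 22.6% and 24.4% and EPHA2 16.2% and 20.2% of the deficient and the sgVector sum, and the PDGFRA segment is 7.41% and 3.79%.

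Each of the 20 receptors past the floor was given a log2 ratio, deficient over sgVector, of RPKM plus 0.1. Of these ratios 15 were above 0 and 5 below. Their median was 0.20, beside -0.05 over all 13552 genes past the floor and -0.03 over the 10576 protein-coding ones. One receptor, PDGFRA, was at least 2-fold higher and 0 were lower by that factor. Of all genes past the floor, 3.03% were as much as 2-fold higher or more and 4.69% were lower by that much, and of protein-coding genes 2.10% and 2.07%, so 1 of 20 is near the background. At 1.5-fold, 3 of 20 receptors were higher and 1 lower, with backgrounds of 8.29% and 12.6% over all genes and 6.92% and 8.67% over protein-coding ones. The 95% Clopper-Pearson interval of the read ratio, which covers counting error alone, lay wholly above no change for 10 of the 20 and wholly below it for 3. Such intervals lay above no change for 25.9% and below it for 32.6% of all genes past the floor, and for 30.0% and 35.4% of protein-coding ones. With lowess trends of the ratio on GC content and on length removed, the receptor median was 0.16.

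**Figure D3:**
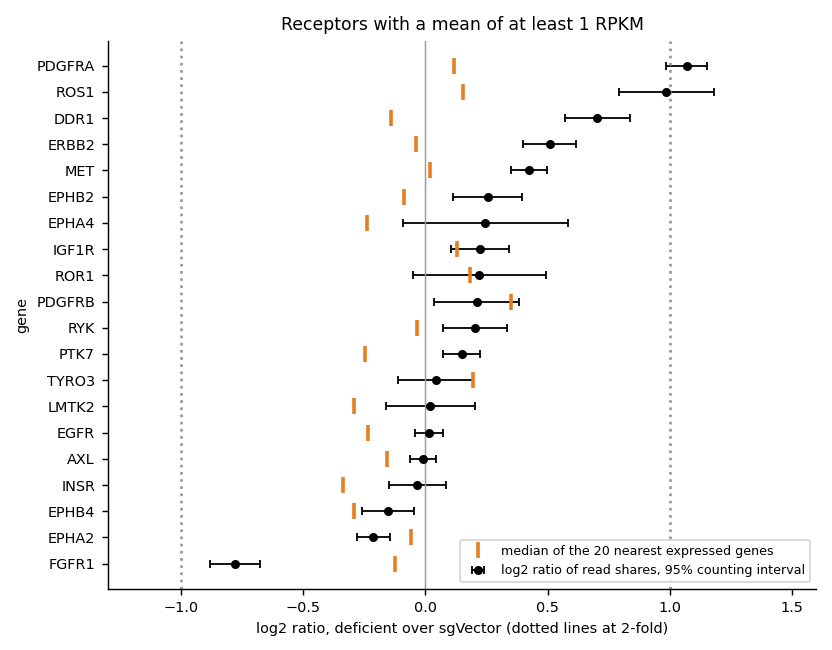
Log2 ratio of read shares, deficient over sgVector, with its 95% counting interval (points and bars) for the 20 receptors with a mean of at least 1 RPKM, and the median log2 ratio of the 20 nearest protein-coding genes past the floor (ticks). PDGFRA is the only point right of the 2-fold line, its interval reaches across that line, and FGFR1 lies farthest to the left.

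In the platelet-derived growth factor class, PDGFRA and PDGFRB are the receptors of PDGF dimers that drive growth of mesenchymal cells, and KIT and FLT3 are their structural relatives. PDGFRA had 22.1 RPKM from 3527 reads in deficient cells and 10.5 RPKM from 1663 reads in sgVector cells. It was 2.10-fold higher (95% interval 1.98 to 2.23), a log2 ratio of 1.06, so the lower end of the interval lies just short of 2-fold. With the GC and length trends removed its log2 ratio was 0.95, short of 2-fold. PDGFRB had 5.04 RPKM from 589 reads in deficient cells and 4.36 RPKM from 504 reads in sgVector cells, 1.16-fold higher (1.02 to 1.305). The ratio of PDGFRA to PDGFRB was therefore 4.39 in deficient cells and 2.42 in sgVector cells. The 20 protein-coding genes past the floor nearest to PDGFRB had a median log2 ratio of 0.35, with 16 above 0, beside 0.20 for PDGFRB. The ligand genes of PDGFRA and PDGFRB differed in both directions. PDGFA stood at 19.97 and 24.9 RPKM, PDGFC at 3.57 and 4.02 RPKM and PDGFB at 2.48 and 1.82 RPKM in deficient and sgVector cells, and PDGFD was listed at 0 in both.

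PDGFRA (ENSG00000134853) lies on chromosome 4 from 55095264 to 55164414 in hg19, next to KIT and KDR. The 3 neighbouring receptor genes were far apart in level. KIT was listed at 0 in both libraries, and KDR, the main vascular endothelial growth factor receptor, had 13 reads in deficient cells and 2 in sgVector cells, a ratio of 6.43 with an interval of 1.46 to 58.7. The 20 nearest protein-coding genes past the floor around PDGFRA had a median log2 ratio of 0.12, with 16 above 0. The upstream 250 bases of the 3 genes in RefSeq (build GRCh38.p14) are printed below to show how these neighbours differ in sequence, with ROS1, the receptor next in the ranking. Capitals mark matches on either strand to the GC box GGGCGG, the TATA box TATAAA, the AP-1 site TGANTCA and the CCAAT box CCAAT, and the sequence reads 5′ to 3′ on the gene's strand.
PDGFRA, chr4:54229043-54229292, plus strand: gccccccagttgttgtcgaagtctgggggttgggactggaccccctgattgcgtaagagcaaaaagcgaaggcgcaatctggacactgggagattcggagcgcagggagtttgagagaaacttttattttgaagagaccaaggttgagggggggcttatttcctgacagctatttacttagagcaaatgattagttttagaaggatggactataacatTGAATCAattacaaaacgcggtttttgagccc
KIT, chr4:54657707-54657956, plus strand: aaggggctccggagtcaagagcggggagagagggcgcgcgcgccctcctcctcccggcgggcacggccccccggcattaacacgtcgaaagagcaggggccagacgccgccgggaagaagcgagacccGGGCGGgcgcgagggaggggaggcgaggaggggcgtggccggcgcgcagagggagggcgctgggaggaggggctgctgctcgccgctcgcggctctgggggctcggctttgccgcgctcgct
KDR, chr4:55125596-55125845, minus strand: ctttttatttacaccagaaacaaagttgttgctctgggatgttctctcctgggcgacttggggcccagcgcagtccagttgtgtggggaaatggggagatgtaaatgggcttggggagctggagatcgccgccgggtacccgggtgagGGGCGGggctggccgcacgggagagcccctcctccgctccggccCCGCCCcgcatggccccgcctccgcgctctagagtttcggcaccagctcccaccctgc
ROS1, chr6:117425943-117426192, minus strand: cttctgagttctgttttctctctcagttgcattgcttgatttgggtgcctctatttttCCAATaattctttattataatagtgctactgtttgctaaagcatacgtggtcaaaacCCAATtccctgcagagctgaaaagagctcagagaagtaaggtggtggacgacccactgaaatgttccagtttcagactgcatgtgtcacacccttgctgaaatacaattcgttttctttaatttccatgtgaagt
These windows end at 1 RefSeq start per gene, which need not be the start used in SUM-159 cells.

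On its strand, 28 exons of PDGFRA are overlapped by another protein-coding gene model, ENSG00000282278, which had 0 reads in both libraries. How reads in shared exons were counted is not known here. The 0 therefore cannot show whether PDGFRA lost reads to the overlap, and the part of the overlap in its level was not tested. The PDGFRA window holds 1 match to the AP-1 pattern, 8 CpG dinucleotides and 46.8% G and C. That pattern allows any base at N, and the PDGFRA match, TGAATCA, has A there. The usual AP-1 site has C or G at that place, so this match is to a loosened pattern only. The KIT window holds 34 CpG and 76.4% G and C with 1 GC box, and the KDR window 17 CpG and 65.2% with 2 GC boxes. The ROS1 window holds 3 CpG, 40.0% G and C and 2 CCAAT matches. Of 44 receptors matched in RefSeq, the 19 past the floor had a median of 24 CpG in the window and the 25 under it a median of 20, beside 11 over all 35116 promoters. A GC box was found in 14 of these 19, in 20 of the 25 and in 42.6% of all promoters. A match to the loosened AP-1 pattern was found in 3 of the 19, namely PDGFRA, ERBB2 and TYRO3, in 0 of the 25 and in 6.57% of all promoters. A TATA match was in 1 of the 19, 2 of the 25 and 10.7% of all promoters, and a CCAAT match in 6, 11 and 32.0%. These matches are letters in a window and no measure of binding.

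ROS1, a receptor of the insulin receptor superfamily best known from its gene fusions in cancer, had 5.11 RPKM from 658 reads in deficient cells and 2.58 RPKM from 329 reads in sgVector cells. It was 1.98-fold higher (1.73 to 2.27) with a log2 ratio of 0.96. Median centring, TPM scaling and TMM, a trimmed-mean scaling, put it just past 2-fold, with log2 ratios up to 1.03. With the GC and length trends removed it was 0.85, and under the remaining alternatives it lay from 0.77 to 0.99, all short of 2-fold. ROS1 (ENSG00000047936) lies on chromosome 6 from 117609463 to 117747018 in hg19. On its strand, 6 of its exons are overlapped by another protein-coding gene model, ENSG00000282218, which had 0 reads in both libraries. The part of this overlap in the ROS1 level was not tested. GOPC and DCBLD1, the nearest expressed neighbours of ROS1, stood at log2 ratios of -0.02 and 0.12, and the 20 nearest at a median of 0.16. Its relative ALK had 4 reads in deficient cells and 0 in sgVector cells, too few for a comparison.

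The discoidin domain receptors DDR1 and DDR2 bind collagen. DDR1 had 8.25 RPKM from 1233 reads in deficient cells and 5.07 RPKM from 749 reads in sgVector cells, 1.63-fold higher (1.49 to 1.79). Its log2 ratio was 0.69, and 0.84 with the GC and length trends removed. DDR1 (ENSG00000204580) lies on chromosome 6 from 30844198 to 30867933 in hg19, among genes with a median log2 ratio of -0.14. DDR2 had 43 reads in deficient cells and 44 in sgVector cells, with an interval of 0.620 to 1.51-fold. DDR1 thus made up 97.1% of the summed RPKM of this pair in deficient cells and 95.2% in sgVector cells.

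**Figure D4:**
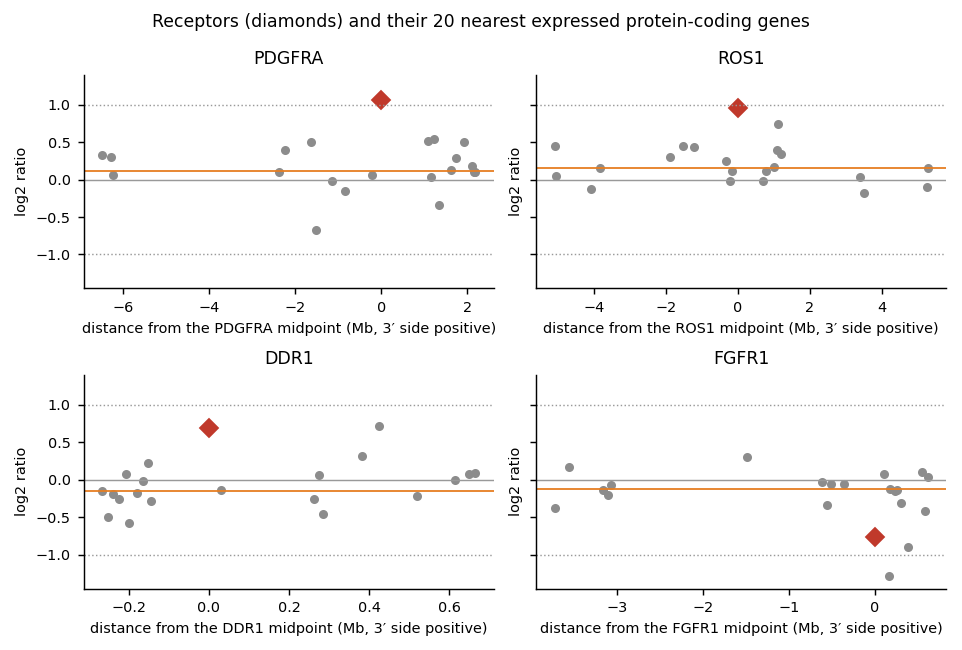
Log2 ratio of (RPKM + 0.1), deficient over sgVector, of PDGFRA, ROS1, DDR1 and FGFR1 (diamonds) and of the 20 nearest protein-coding genes past the floor (points), against distance in Mb from the receptor's midpoint, with the median of the 20 as a line and 2-fold as dotted lines. PDGFRA, ROS1 and FGFR1 lie away from medians of 0.12, 0.16 and -0.12, and DDR1 from a median of -0.14.

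FGFR1, a fibroblast growth factor receptor, had the lowest ratio among the 20 receptors past the floor. It had 5.42 RPKM from 1230 reads in deficient cells and 9.31 RPKM from 2089 reads in sgVector cells, 1.72-fold lower (1.599 to 1.84), a log2 ratio of -0.77. That value was the same with the GC and length trends removed. FGFR1 (ENSG00000077782) lies on chromosome 8 from 38257733 to 38326352 in hg19. An antisense gene over it, ENSG00000255201, had 5 reads in deficient cells and 30 in sgVector cells, and since the labels do not say whether counting used strand, reads of such pairs cannot be told apart. The 20 nearest genes had a median log2 ratio of -0.12, with 5 above 0. The nearest on either side, NSD3 and TACC1, stood at 0.08 and -0.05, and the lowest of the 20, PLPP5 and EIF4EBP1, at -1.28 and -0.89. The part of the neighbourhood in the FGFR1 value was not tested. FGFR3 had 2 reads in deficient and 3 in sgVector cells, and FGFR4 6 and 5. The ligand gene FGF2 went the other way, at 18.4 RPKM in deficient cells and 10.1 RPKM in sgVector cells, 1.83-fold higher (1.70 to 1.97).

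The ErbB family signals through dimers of EGFR, ERBB2, which has no ligand of its own, ERBB3, whose kinase is weak, and ERBB4. EGFR had 5235 reads in deficient cells and 5128 in sgVector cells, with a ratio interval of 0.972 to 1.05 that spans no change. ERBB2 had 9.996 RPKM from 1690 reads in deficient cells and 7.02 RPKM from 1175 reads in sgVector cells, 1.42-fold higher (1.32 to 1.53). It overlaps MIEN1 and PGAP3 on the opposite strand, which had 502 and 219 reads in deficient cells and 511 and 170 in sgVector cells. ERBB3 had 23 reads in deficient cells and 35 in sgVector cells, with an interval of 0.367 to 1.13-fold. On its strand, 7 of its exons are overlapped by another protein-coding gene model, ENSG00000257411, which had 0 reads in both libraries. The part of this overlap in the ERBB3 level was not tested. ERBB4 had 33 reads in deficient cells and 58 in sgVector cells, 1.78-fold lower (1.14 to 2.81), at 0.155 and 0.275 RPKM, under the floor. EGFR and ERBB2 thus carried nearly all of the family's RPKM in both libraries.

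The ErbB ligands were led by EREG, which encodes epiregulin, at 161 RPKM in deficient cells and 156 RPKM in sgVector cells. TGFA, an EGFR ligand gene, had 179 reads in deficient cells and 57 in sgVector cells, 3.11-fold higher (2.29 to 4.26). HBEGF, which encodes a heparin-binding EGFR ligand, had 87 reads in deficient cells and 223 in sgVector cells, 2.59-fold lower (2.01 to 3.36). NRG2, a neuregulin gene, had 154 reads in deficient cells and 57 in sgVector cells, 2.67-fold higher (1.96 to 3.69), while NRG1, under the floor, had 31 and 106 reads. TGFA and NRG2 were thus higher and HBEGF and NRG1 lower, while EREG, by far the highest, was 1.03-fold higher (1.01 to 1.05). The EGFR interval spanned no change as reported. Its log2 ratio of 0.01 was 0.09 under TMM scaling and -0.05 with the GC and length trends removed, both outside its counting interval.

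MET had 3425 reads in deficient cells and 2526 in sgVector cells, 1.34-fold higher (1.27 to 1.41). MET (ENSG00000105976) lies on chromosome 7 from 116312444 to 116438440 in hg19, where its 20 nearest genes had a median of 0.02. Its relative MST1R, the receptor of macrophage-stimulating protein, had 0 reads in deficient cells and 3 in sgVector cells. The ligand gene HGF was under the floor, with 64 reads in deficient cells and 41 in sgVector cells.

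The TAM receptors AXL, TYRO3 and MERTK recognise phosphatidylserine on dying cells through GAS6 and protein S. AXL had 5701 reads in deficient cells and 5680 in sgVector cells, a ratio of 0.993 (0.957 to 1.03). TYRO3 had 700 reads in deficient cells and 673 in sgVector cells, a ratio of 1.03 (0.924 to 1.15). MERTK had 16 reads in deficient cells and 7 in sgVector cells, with an interval of 0.880 to 6.50-fold. AXL made up 94.3% of the family's RPKM in deficient cells and 94.6% in sgVector cells. The ligand genes differed in opposite directions, with GAS6 at 12.5 RPKM in deficient cells and 15.7 RPKM in sgVector cells and PROS1, the protein S gene, at 13.7 RPKM in deficient cells and 9.44 RPKM in sgVector cells.

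Eph receptors bind ephrins on neighbouring cells and signal in contact-dependent repulsion and sorting. EPHA2 had 3300 reads in deficient cells and 3784 in sgVector cells, 1.16-fold lower (1.11 to 1.21), a log2 ratio of -0.21 that was -0.01 with the GC and length trends removed. EPHB4, a receptor for ephrin-B2, had 1342 reads in deficient cells and 1477 in sgVector cells, 1.11-fold lower (1.03 to 1.20), and 0 of its 20 nearest genes were above 0. Its log2 ratio of -0.15 changed sign to 0.01 with those trends removed, and it overlaps SLC12A9. EPHB2 had 902 reads in deficient cells and 748 in sgVector cells, 1.19-fold higher (1.08 to 1.32). EPHA4 had 163 and 136 reads and EPHA7 96 and 94 reads in deficient and sgVector cells, with intervals that span no change. EPHA3 had 24 reads in deficient cells and 45 in sgVector cells, 1.90-fold lower (1.13 to 3.25), at 0.220 and 0.416 RPKM, under the floor. EPHA1, EPHB1 and EPHB6 had 5, 0 and 20 reads in deficient cells and 6, 4 and 17 in sgVector cells.

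Among the ephrins, EFNB1, an X-linked ephrin-B gene, had 20.8 RPKM from 1131 reads in deficient cells and 8.79 RPKM from 472 reads in sgVector cells, 2.37-fold higher (2.13 to 2.65). EFNA1, a gene of an EPHA2 ligand, stood at 17.0 RPKM in deficient cells and 12.3 RPKM in sgVector cells, a log2 ratio of 0.46. EFNA4 and EFNA3 stood at -0.66 and -0.54. EPHA2 and EFNA1 therefore had ratios of opposite sign, of which the EPHA2 value depended on the GC and length trends.

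The insulin receptor gene INSR had 1177 reads in deficient cells and 1191 in sgVector cells, a ratio of 0.978 (0.901 to 1.06). IGF1R, the receptor of insulin-like growth factors, had 1269 reads in deficient cells and 1075 in sgVector cells, 1.17-fold higher (1.08 to 1.27). Its log2 ratio was 0.22, beside a median of 0.13 over its 20 nearest genes. The ligand genes were at or near 0, with IGF1 at 1 read in deficient cells and 0 in sgVector cells and IGF2 listed at 0 in both.

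Receptors that act with Wnt ligands or carry weak or inactive kinases made up another group. PTK7, a pseudokinase of planar cell polarity, had 20.5 RPKM from 3035 reads in deficient cells and 18.5 RPKM from 2709 reads in sgVector cells, 1.11-fold higher (1.05 to 1.17). RYK, a Wnt-binding pseudokinase, had 1046 reads in deficient cells and 899 in sgVector cells, 1.15-fold higher (1.05 to 1.26), and its log2 ratio of 0.20 became 0.01 with the GC and length trends removed. ROR1 had 245 reads in deficient cells and 208 in sgVector cells, with an interval of 0.965 to 1.41-fold. Its log2 ratio was 0.21, beside a median of 0.18 over its 20 nearest genes. ROR2, a receptor for WNT5A, had 25 reads in deficient cells and 2 in sgVector cells, a ratio of 12.4 with an interval of 3.08 to 108, at 0.262 and 0.0212 RPKM, so its difference of 0.24 RPKM adds little to the receptor sum. WNT5A itself stood at 6.94 RPKM in deficient cells and 10.3 RPKM in sgVector cells. Outside this group, LMTK2, a membrane kinase of endosomal traffic, had 504 reads in deficient cells and 492 in sgVector cells, with an interval of 0.893 to 1.15-fold.

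The endothelial and neural receptors were nearly absent from both libraries. TIE1, NTRK2 and NTRK3 had 0, 3 and 0 reads in deficient cells and 2, 1 and 1 in sgVector cells. Ligand genes for such receptors were present, with VEGFA at 34.1 RPKM in deficient cells and 42.8 RPKM in sgVector cells and VEGFB at 68.4 and 68.3 RPKM. PTN, which encodes the heparin-binding growth factor pleiotrophin, had 146 reads in deficient cells and 398 in sgVector cells, 2.76-fold lower (2.27 to 3.35). NRTN, the gene of a ligand in the GDNF family whose receptor is RET, had 39 reads in deficient cells and 93 in sgVector cells, 2.41-fold lower (1.64 to 3.60), while RET had none.

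Of 55 ligand genes 26 were past the floor, and 3 of these were higher and 3 lower by 2-fold or more, with a median log2 ratio of -0.17. Over all genes past the floor, 3.03% were higher and 4.69% lower by that factor, and over protein-coding genes 2.10% and 2.07%, the background also for the list of co-receptors and regulators. The 3 higher were TGFA, NRG2 and EFNB1 and the 3 lower PTN, HBEGF and NRTN, of which NRTN stood at -0.86, short of 2-fold, with the GC and length trends removed. Of 28 co-receptors and regulators 20 were past the floor, 0 at least 2-fold higher and 1 lower, with a median of 0.11. That gene was NRP2, a co-receptor for VEGF and semaphorins, with 233 reads in deficient cells and 631 in sgVector cells, 2.74-fold lower (2.35 to 3.19). Its relative NRP1 was 1.502-fold lower (1.44 to 1.56) and CBLB, a ubiquitin ligase gene, 1.51-fold lower (1.35 to 1.69). The highest were GRB10, which encodes an adaptor that restrains insulin receptor signalling, at 1.78-fold higher (1.69 to 1.87), the sorting receptor gene SORT1 at 1.497-fold higher (1.43 to 1.56) and ERRFI1, which encodes an inhibitor of the EGFR kinase, at 1.43-fold higher (1.36 to 1.498).

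**Figure D5:**
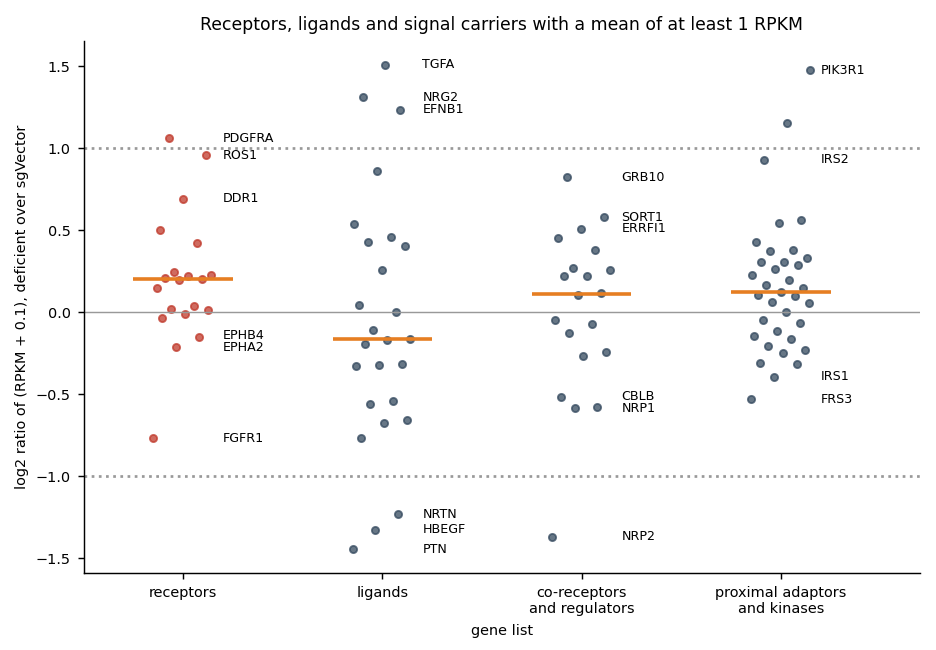
Log2 ratio of (RPKM + 0.1), deficient over sgVector, of every gene with a mean of at least 1 RPKM among the receptors, their ligands, co-receptors and regulators, and proximal adaptors and kinases (points), with list medians as bars (0.20, -0.17, 0.11 and 0.12) and genes at the top and bottom of each list named. Ligands reach past the dotted 2-fold lines on both sides.

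Of 36 proximal adaptors and kinases 35 were past the floor, and 2 were at least 2-fold higher and 0 lower, with a median of 0.12. With 3.03% of all genes past the floor and 2.10% of protein-coding ones higher by that factor, and 4.69% and 2.07% lower, these counts are close to the background. PIK3R1, which encodes the p85 alpha regulatory subunit of phosphoinositide 3-kinase, had 37.2 RPKM from 6557 reads in deficient cells and 13.3 RPKM from 2318 reads in sgVector cells, 2.80-fold higher (2.67 to 2.94). IRS2, which links insulin receptors to phosphoinositide 3-kinase, was 1.93-fold higher (1.73 to 2.17), whereas its relative IRS1 was 1.33-fold lower (1.14 to 1.56). FRS3, an adaptor gene of FGF receptors, was 1.46-fold lower (1.16 to 1.84). The PIK3R1 ratio exceeded that of PDGFRA, and the ratios of IRS2 and IRS1 were of opposite sign.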

How the data were processed

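RNA was measured in 1 PD-L1L2-SE deficient and 1 sgVector library of SUM-159 cells. The submitters' processing notes name Subread, featureCounts 1.6.4 and the builds GRCh37 and hg19. They give no annotation release or strand setting. The table deposited by the authors holds RPKM per gene with its coordinates and length, per the file headers. Multiplied by length, 100% of the RPKM values came out as whole reads to within 1e-06 of a read, and intervals used those reads. Replicates were absent, so p-values were not computed.

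Symbols came from a gene name table, and gene types and GC content from GENCODE release 29, matched by identifier for 93.4% of 60880 rows. The 41 pseudoautosomal rows of chromosome Y were left out. Log2 ratios were taken of RPKM plus 0.1, which understates the change of low genes. Only genes averaging 1 RPKM or more entered the main counts and medians, and some genes under that floor are given with their reads and intervals. Fold changes are ratios of read shares with 95% Clopper-Pearson limits. Reads from PCR carry no molecular identifiers here, so limits and floors cover counting error only. GC and length trends were removed by lowess (share 0.3) on protein-coding genes. All 47 members were described. Of each pathway list the 3 highest and 3 lowest genes past the floor with at least 50 reads were named, save some that are not reported here, and some further ligands were named after their values were seen. Members and lists were chosen with earlier results of these data known. Steps were tested on simulated data. Promoters are RefSeq sequences of build GRCh38.p14. Software was matplotlib 3.10.9, statsmodels 0.14.6, scipy 1.17.1, pandas 2.3.3 and numpy 2.4.6 under Python 3.11.15.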

Additional observations from a re-analysis of the deposited data

How the results depend on the processing

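The number of receptors at least 2-fold higher was 1 as reported. It was 2 with median centring, with TPM and with TMM scaling, which brought ROS1 past 2-fold, and 2 with no floor, where ROR2 enters. It was 0 with the GC and length correction and 0 when the whole interval had to pass 2-fold, and 3 at 1.5-fold, where 1 receptor was lower. The median log2 ratio lay between 0.14 and 0.28 under 11 alternatives and was 0 with no floor, where receptors listed at 0 enter. The log2 ratio of the receptor sums, 0.10 as reported, was 0.15 with TPM, 0.18 with TMM, 0.13 with upper-quartile scaling, 0.079 without mitochondrial genes, 0.14 without AXL and, chosen after seeing the data, 0.047 without PDGFRA. With a pseudocount of 1 RPKM, 1 ligand was at least 2-fold higher and 0 co-receptors or regulators at least 2-fold lower, an offset that draws low genes towards 0 by construction. Of 200 member values under 8 alternatives 14 left their counting interval, 9 under the GC and length correction and 5 under TMM. Signs changed under some alternative for 7 members, AXL, DDR2, EGFR, EPHA7, EPHB4, INSR and LMTK2, none of them past 1.5-fold as reported. Depth limits ROR2, KDR, MERTK and the other receptors under the floor. No paired analysis was possible because each group has 1 library.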
